A study of Mus musculus with 6 samples.

Results

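This account covers 9 genes of the thick filament in mouse soleus, 6 of them light chain genes or their kinase and 3 of them genes of myosin binding proteins. The genes are *Myl1*, *Myl2*, *Myl3*, *Myl4*, *Mylpf*, *Mylk2*, *Mybpc1*, *Mybpc2* and *Mybph*. They were taken by symbol, and all 9 are among the 16247 rows of the deposited normalized table and the 51912 genes of the deposited raw counts. The comparison is between the soleus of 3 *Mustn1* KO-first heterozygous (HET) mice and 3 wild-type (WT) mice, each from the C57BL6/N strain, labelled male and 8 weeks old, with 1 library of poly-A RNA per mouse. HET mice carried 1 KO-first allele of *Mustn1* in the whole body, a gene trap with lacZ and neomycin cassettes that was present in every cell type, and 1 WT allele. WT mice carried 2 WT alleles and are given as littermates, without saying which mice shared a litter. The question was whether the loss of 1 *Mustn1* allele was accompanied by a change of these genes, and whether slow and fast isoforms differed in it.

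Each myosin head rests on a lever arm that is wrapped by 1 essential and 1 regulatory light chain, which stiffen the lever and tune the speed and force of contraction. Slow and fast fibers use different light chain genes, so that their transcripts report on the fiber types in a muscle, and the mouse soleus mixes slow type I with fast type IIa fibers. Calcium and calmodulin switch on a kinase that phosphorylates the regulatory light chain and so strengthens later twitches. Myosin binding proteins C and H lie in stripes along the thick filament and hold myosin heads near its backbone.

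Slow and fast isoforms are encoded by separate but similar genes, and 50-base reads can count for one gene only where the sequences differ. Coding sequences of reference transcripts (GENCODE M21 on GRCm38) were therefore aligned. The slow regulatory light chain gene *Myl2* and the fast regulatory light chain gene *Mylpf* were identical at 71.7% of 495 aligned coding bases, and their longest shared run had 20 bases. The essential light chain genes *Myl1* (fast) and *Myl3* (slow) were identical at 70.7% of 564 bases, with a longest run of 20 bases. *Myl3* and *Myl4*, the atrial and embryonic essential light chain gene, were the closest pair, at 78.1% of 576 bases with a run of 29 bases. *Mybpc1* (slow type) and *Mybpc2* (fast type) were identical at 62.5% of 3261 bases with a run of 21 bases. The runs are shown in capitals within their coding sequence, with 30 bases on each side, because they mark the longest stretch in which these transcripts cannot be told apart.
Myl2: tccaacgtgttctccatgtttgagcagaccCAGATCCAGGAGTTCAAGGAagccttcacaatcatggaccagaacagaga
Mylpf: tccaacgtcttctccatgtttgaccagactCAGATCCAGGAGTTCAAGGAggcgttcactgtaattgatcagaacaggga
Myl1: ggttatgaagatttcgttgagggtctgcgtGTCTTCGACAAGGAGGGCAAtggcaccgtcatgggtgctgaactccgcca
Myl3: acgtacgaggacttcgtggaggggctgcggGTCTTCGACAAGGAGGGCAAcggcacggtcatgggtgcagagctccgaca
Myl3, against Myl4: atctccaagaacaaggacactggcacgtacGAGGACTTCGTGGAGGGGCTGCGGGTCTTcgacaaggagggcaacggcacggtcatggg
Myl4: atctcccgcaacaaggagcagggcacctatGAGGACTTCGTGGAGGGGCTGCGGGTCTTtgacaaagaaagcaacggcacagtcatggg
Mybpc1: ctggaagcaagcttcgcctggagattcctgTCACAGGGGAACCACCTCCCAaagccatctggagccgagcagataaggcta
Mybpc2: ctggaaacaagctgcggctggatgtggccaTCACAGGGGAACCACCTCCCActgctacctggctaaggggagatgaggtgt

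In the 7 pairs of members that were aligned, the shared runs had between 14 and 29 bases, all shorter than a 50-base read. No exon of a member overlapped an exon of another gene on the same strand. Of the abundant genes *Myl1* shared the most sequence with others, since 23.4% of the 50-base words of its reference transcript also occur in the processed pseudogene *Mylf-ps* on chromosome 12. *Mylf-ps* itself held 75 to 234 reads per library against 42265 to 77197 for *Myl1*. Multi-mapping reads were left out of the counts, so reads that matched both equally well counted for neither. How many reads *Myl1* lost in this way was not tested. For *Mybph*, 26.6% of the words also occur in *Adora1*, a gene that overlaps it on the opposite strand and that strand-specific counting separates. *Myl1* has 8 annotated transcripts, which encode a long and a short essential light chain, and the gene counts do not separate them.

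The genes lie on 7 chromosomes of GRCm38. Those of the light chains are *Myl1* (ENSMUSG00000061816, chr1:66924295-66945404, minus strand), *Myl2* (ENSMUSG00000013936, chr5:122100951-122113472, plus strand), *Myl3* (ENSMUSG00000059741, chr9:110741861-110769798, plus strand), *Myl4* (ENSMUSG00000061086, chr11:104550663-104595753, plus strand) and *Mylpf* (ENSMUSG00000030672, chr7:127208890-127214298, plus strand). The kinase gene *Mylk2* lies at chr2:152911352-152923068 on the plus strand (ENSMUSG00000027470). Those of the binding proteins are *Mybpc1* (ENSMUSG00000020061, chr10:88518279-88605152, minus strand), *Mybpc2* (ENSMUSG00000038670, chr7:44501699-44524656, minus strand) and *Mybph* (ENSMUSG00000042451, chr1:134193448-134201232, plus strand). Counts cover all exons of a gene.

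Libraries held 26790075 to 50368796 reads on genes, and the 9 genes took 1.98% to 2.26% of them. *Mustn1*, the targeted gene, was lower in all 3 HET mice, with a log2 fold change of -0.96 (SE 0.15, edgeR adjusted p = 0.0452), and this call was lost when HET 1, HET 3, WT 1 or WT 2 was left out. The mice are labelled male, but *Xist*, which is transcribed from the inactive X chromosome of females, had 3858 to 9154 reads in each of the 6 libraries and 4 Y chromosome genes summed had 0 to 12. The libraries of both genotypes thus go against the label on sex in the same way. Replicate mice differed beyond counting error, with a chi-square per gene of 15.0 to 42.8 between mice of one genotype.

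Levels between genes were compared per length, as reads per kilobase of merged exons scaled to the library's reads on genes (RPKM). RPKM leaves out the TMM scaling factors of the fit, so its values compare genes within a genotype and not WT with HET. The essential light chain gene *Myl3* had the highest mean level, at 2743 ± 197 RPKM in WT and 2605 ± 123 in HET (SD, n = 3). *Mylpf* followed at 2424 ± 259 and 2256 ± 58.8 RPKM, *Myl2* at 1916 ± 220.3 and 1847 ± 230.0, and *Mybpc1* at 1585 ± 54.3 and 1618 ± 109. These 4 genes were of the order of the myosin heavy chain genes *Myh2*, the type IIa chain, at 1780.0 ± 61.6 and 2068 ± 177, and *Myh7*, the slow chain, at 1594 ± 37.7 and 1693 ± 27.1. *Myl1* stood lower at 799 ± 54.6 and 758 ± 15.2 RPKM, without correction for reads lost to the match with *Mylf-ps*. Of these genes *Mybpc1*, *Myh2* and *Myh7* had a higher mean RPKM in HET than in WT. With the TMM factors their log2 fold changes were -0.05, 0.14 and 0.01.

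The other 4 genes stood below *Myl1*. *Mylk2*, which encodes the skeletal muscle myosin light chain kinase, had 130 ± 18.5 RPKM in WT and 117 ± 24.9 in HET, and *Mybpc2* had 92.5 ± 20.0 and 53.5 ± 29.6. *Myl4* had 1.87 ± 0.207 and 2.02 ± 0.0414, and *Mybph* had 1.11 ± 0.319 and 1.03 ± 0.243. In this order, the mice of neighbouring genes overlapped in RPKM for *Myl3* and *Mylpf* in WT only, for *Myl2* and *Mybpc1* in HET only, and for *Mylk2* and *Mybpc2* in WT only. The other neighbours did not overlap in either genotype.

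The order of the light chains depended on the length used. Merged exons hold every annotated exon, and they were 2.95 times as long as the reference transcript for *Myl2*, 2.18 times for *Myl3*, 1.92 times for *Myl1* and 1.39 times for *Mylpf*. With the length of 1 reference transcript, an alternative chosen after seeing the data, *Myl2* moved up to 5645 ± 649 RPKM in WT, next to *Myl3* at 5983 ± 429 and above *Mylpf* at 3361 ± 359. *Myl4* moved from 1.87 to 9.88 RPKM. Levels between genes carry this uncertainty, while a length used as a divisor cancels from a fold change between genotypes.

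**Figure D1:**
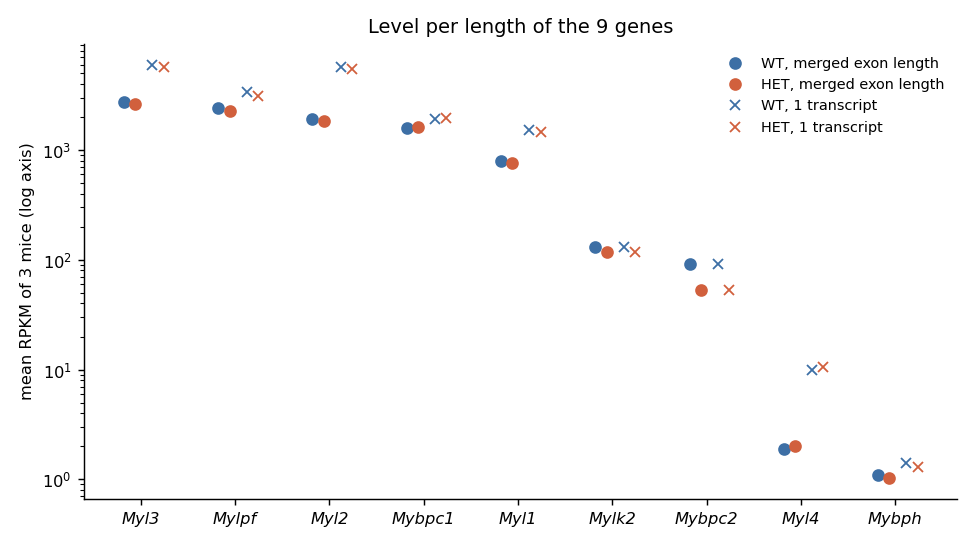
Mean level of each gene over 3 mice, in RPKM on a log axis, with WT in blue and HET in orange, and with circles for merged exon length and crosses for the length of 1 reference transcript. *Myl3*, *Mylpf*, *Myl2* and *Mybpc1* lie above the other 5 genes with merged exon length, *Myl2* rises from 1916 to 5645 RPKM in WT with the shorter length, and *Mybph* is lowest at 1.11 RPKM in WT. The values leave out the TMM factors and do not compare WT with HET.

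The remaining values are counts scaled to library size with TMM factors (CPM), which compare 1 gene between mice. None of the 9 genes passed the test between genotypes: 0 of 9 had an adjusted p below 0.05 and 0 of 9 had an unadjusted p below 0.05 by edgeR, against 0.150% of the 14696 tested genes called after adjustment and 7.76% below 0.05 without it. In the direction of a fall, 0.00680% of all tested genes were called. DESeq2 and limma-voom also called 0 of the 9. In all 9 genes HET and WT mice overlapped, where 13.6% of all tested genes had no overlap. The log2 fold change was below 0 for 8 of the 9 genes, beside 54.4% of all tested genes, with a median of -0.15 beside -0.02 over all tested genes. Missing the threshold does not show that the genotypes were alike, and the intervals below give what the data allow.

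The regulatory light chains came first, the fast one being *Mylpf*. Its counts were 2388, 2361 and 2252 CPM in HET 1, HET 2 and HET 3, and 2752, 2869 and 2313 in WT 1, WT 2 and WT 3. WT 3 lay within the range of the HET mice and the other 2 WT mice lay above it. *Mylpf* had a log2 fold change of -0.18 (SE 0.10, edgeR adjusted p = 0.768), a HET to WT ratio of 0.882 with a 95% interval of 0.759 to 1.03. With each library's trend on gene length removed it was -0.10, and that of *Myl2* was -0.11.

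The slow regulatory light chain gene *Myl2*, which is also the ventricular one, had 3972, 3232 and 3313 CPM in the 3 HET mice. In the WT mice it had 4226, 3973 and 3318 CPM. HET 1 reached the level of WT 2, and WT 3 that of HET 3. For *Myl2* the log2 fold change was -0.13 (SE 0.12, edgeR adjusted p = 0.885), and the ratio was 0.913 with an interval of 0.764 to 1.09. It was -0.06 without WT 1, -0.06 without HET 2, -0.23 without HET 1 and -0.23 without WT 3, with no call.

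Both essential light chains had nearly the same fitted difference. *Myl1*, the fast gene, had 1489, 1574 and 1532 CPM in HET and 1751, 1795 and 1563 in WT. WT 3 was below HET 2, and WT 1 and WT 2 were above all HET mice. Its log2 fold change was -0.15 (SE 0.09, edgeR adjusted p = 0.791), with a ratio of 0.900 and an interval of 0.787 to 1.03.

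*Myl3*, the slow and ventricular essential light chain gene, had 5421, 5101 and 5029 CPM in HET and 6189.7, 5809 and 5277 in WT. As for *Myl1* and *Mylpf*, WT 1 and WT 2 lay above every HET mouse and WT 3 did not. For *Myl3* the log2 fold change was -0.15 (SE 0.09, edgeR adjusted p = 0.804), with a ratio of 0.900 and an interval of 0.784 to 1.03. Over these 4 light chain genes, the lower bounds of the ratio were 0.759 to 0.787 and the upper bounds 1.03 to 1.09.

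*Myl4* is normally an essential light chain of atria and of developing muscle. It had 8.86, 9.46 and 9.09 CPM in HET and 8.49, 10.03 and 8.24 in WT, from 254 to 407 reads per library. The HET mice lay inside the range of the WT mice, and *Myl4* was the only member with a log2 fold change above 0, at 0.04 (SE 0.13, edgeR adjusted p = 0.978). Of 4 atrial heart markers, 2 were nearly absent. *Nppa*, the natriuretic peptide gene, had at most 2 reads in a library and *Myl7*, the atrial regulatory light chain gene, at most 1. The other 2, *Sln* and *Myh6*, which soleus also expresses, were present at 84.9 to 140 and 14.8 to 21.1 CPM. Their log2 fold changes were -0.25 and -0.06, with no call. Whether atrial tissue added to the *Myl4* counts was not tested.

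*Mylk2* varied more from mouse to mouse. Its counts were 338, 414 and 257 CPM in HET and 435, 329 and 420 in WT, with the lowest value in HET 3 and with HET 1 and HET 2 between the WT values. The highest mouse stood 1.69 times above the lowest. Its log2 fold change was -0.23 (SE 0.17, edgeR adjusted p = 0.860), with an interval of the ratio of 0.652 to 1.12, and it was -0.06 without HET 3, -0.39 without HET 2 and -0.35 without WT 2, with no call.

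**Figure D2:**
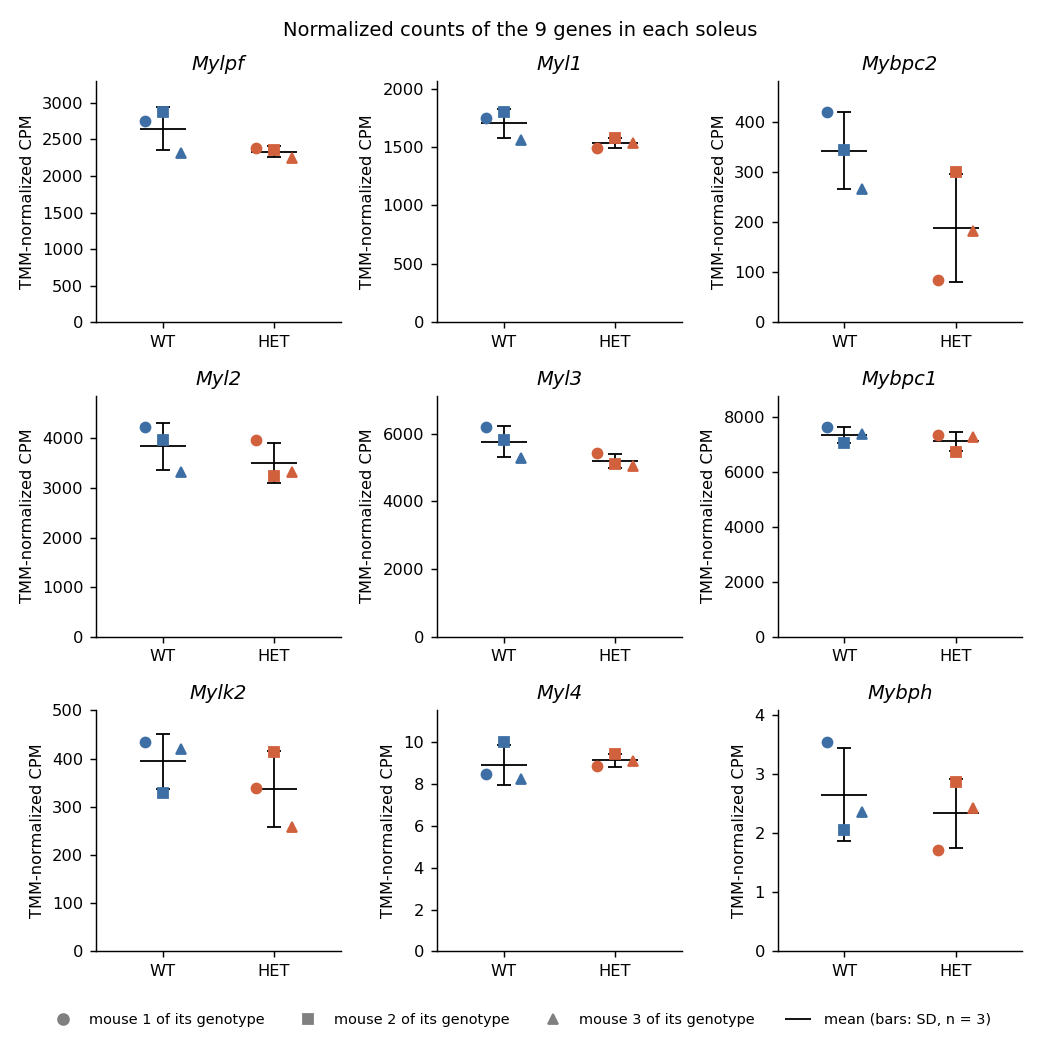
TMM-normalized CPM of the 9 genes in each mouse (circle, square and triangle for mice 1, 2 and 3 of a genotype, with WT in blue and HET in orange), with the mean and SD of 3 mice as black bars and each axis starting at 0. HET and WT mice overlap in every panel, and *Mybpc2* has the widest spread, from 85.0 CPM in HET 1 to 420.1 in WT 1.

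Among the binding proteins, *Mybpc1* encodes the slow type of myosin binding protein C, which fast fibers also make. It was the steadiest gene of the 9, with 7358, 6737 and 7282 CPM in HET and 7643, 7066 and 7401 in WT. The HET and WT mice were interleaved, and the highest mouse stood 1.13 times above the lowest. The log2 fold change was -0.05 (SE 0.08, edgeR adjusted p = 0.948), with a ratio of 0.967 and an interval of 0.850 to 1.10.

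*Mybpc2*, the fast type, was the least steady. It had 85.0, 301 and 182 CPM in HET and 420.1, 344 and 266 in WT. HET 1 and HET 3 were below every WT mouse and HET 2 lay between WT 3 and WT 2. The highest mouse stood 4.94 times above the lowest, where the median of that ratio was 1.24 over the 1334 tested genes with a mean of 100 CPM or more. The log2 fold change of *Mybpc2* was -0.86 (SE 0.50, edgeR adjusted p = 0.822), and the interval of the ratio was wide, from 0.225 to 1.35. Without HET 1 the log2 fold change was -0.51 and without HET 2 it was -1.35, with no call in either.

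*Mybph*, the gene of myosin binding protein H, was the rarest, with 58 to 116 reads per library. It had 1.71, 2.87 and 2.41 CPM in HET and 3.54, 2.06 and 2.35 in WT. Both the lowest and the second highest value were in HET mice. The log2 fold change was -0.19 (SE 0.27, edgeR adjusted p = 0.936), with an interval of the ratio of 0.579 to 1.33. *Mybpc3*, the cardiac binding protein C, had at most 2 reads in a library.

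**Figure D3:**
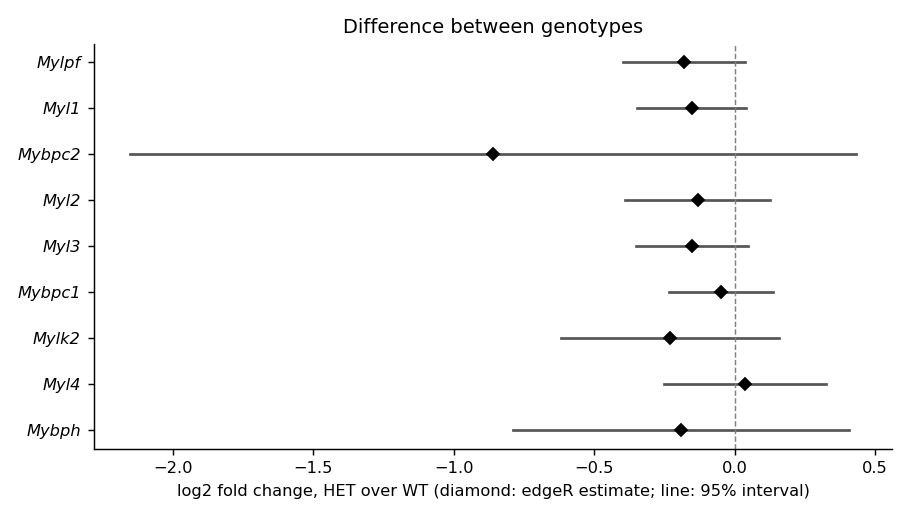
Log2 fold change of HET over WT for each gene (diamond) with its 95% interval from edgeR (line), and 0 as a dashed line. All 9 intervals include 0, from the narrow one of *Mybpc1* (-0.23 to 0.14) to the wide one of *Mybpc2* (-2.15 to 0.43).

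Fast over slow ratios were taken within each library, so that its scaling drops out. The log2 ratio of *Mylpf* over *Myl2*, in reads per kilobase of merged exons, was 0.14, 0.42 and 0.32 in HET and 0.26, 0.41 and 0.36 in WT. The means were 0.30 ± 0.14 and 0.34 ± 0.08 (SD, n = 3), a difference of -0.04 that is smaller than the spread, and the genotypes overlapped. *Myl2* thus made up 44.9% ± 2.43 of the regulatory light chain reads per kilobase in HET and 44.1% ± 1.299 in WT. By the length of 1 reference transcript these shares were 63.4% ± 2.27 and 62.7% ± 1.23, so which isoform is in the majority depends on the length used as divisor, which cancels from the difference in log2 ratio between genotypes. With the trend on gene length removed, the fold changes of *Mylpf* and *Myl2* differed in the opposite order, at -0.10 and -0.11.

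For the essential light chains, the log2 ratio of *Myl1* over *Myl3* was -1.88, -1.72 and -1.74 in HET and -1.84, -1.72 and -1.78 in WT. The means, -1.78 ± 0.09 and -1.78 ± 0.06, differed by -0.0011. The slow gene *Myl3* made up 77.4% ± 1.10 in HET and 77.4% ± 0.773 in WT. Slow transcripts were thus the larger part of the essential light chains in both genotypes, with either length. These shares are not corrected for *Myl1* reads lost to the match with *Mylf-ps*.

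For binding protein C, the log2 ratio of *Mybpc2* over *Mybpc1* was -6.11, -4.16 and -4.997 in HET and -3.86, -4.03 and -4.47 in WT. HET 2 lay between WT 2 and WT 3, and HET 1 and HET 3 lay below all WT mice. The means were -5.09 ± 0.98 and -4.12 ± 0.32, a difference of -0.97 (between -1.43 and -0.46 with any 1 mouse removed). *Mybpc1* made up 96.7% ± 1.95 in HET and 94.5% ± 1.09 in WT. No test was made of these ratios, and 3 against 3 mice could not reach a two-sided exact permutation p below 0.1.

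HET 1 had the lowest fast over slow ratio of all 6 mice in all 3 pairs. WT 1 had the second lowest ratio in both light chain pairs but the highest for binding protein C, so the light chain and binding protein ratios did not order the mice alike.

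**Figure D4:**
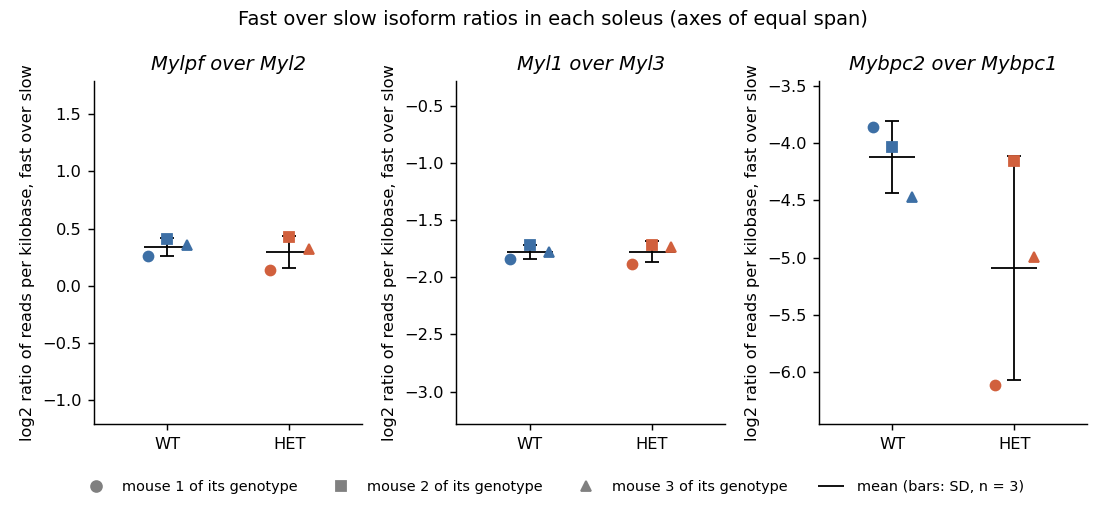
Log2 ratio of reads per kilobase of merged exons, fast over slow, in each mouse (symbols as for the counts by mouse), with the mean and SD of 3 mice, on axes of equal span that start at different values. Over all 6 mice *Mylpf* over *Myl2* runs from 0.14 to 0.42 and *Myl1* over *Myl3* from -1.88 to -1.72, whereas *Mybpc2* over *Mybpc1* runs from -6.11 in HET 1 to -3.86 in WT 1.

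The heavy chains on which these light chains sit were read from the same fit. *Myh7* and *Myh2*, the chains of the main soleus fiber types, had log2 fold changes of 0.01 and 0.14, and *Myh1*, the type IIx chain, had -0.31 (edgeR adjusted p = 0.804). *Myh4*, the type IIb chain of the fastest fibers, had 44.7, 2041 and 167 CPM in HET and 1469, 1773 and 975 in WT. HET 2 had the highest *Myh4* value of all mice while HET 1 and HET 3 had the lowest, and the log2 fold change of -0.91 had an SE of 1.499 (edgeR adjusted p = 0.948). HET 1 and HET 3 were also the mice with the lowest *Mybpc2*.

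Of the 12 fast fiber genes, 5 had HET 1 lowest and HET 3 next, as *Mybpc2* did, and 8 had these mice lowest in either order. Of the 9 slow fiber genes, 0 had the first order and 1 had these mice lowest in either order. The order was taken from *Mybpc2* itself, and the share over all tested genes was not counted, so these counts are a description only. HET 1 and HET 3 were also the more alike HET mice over all genes, with a chi-square per gene of 16.4. With HET 2 they had 38.8 and 42.8. Among the fast genes, *Myh1* was lowest in HET 2 (4081 CPM) and *Myh2* in WT 1 (12645 CPM). *Actn3* and *Pvalb* were chosen from the 5 fast genes of the first order after their values were seen. *Actn3*, the alpha-actinin of fast fibers, had 261, 738 and 441 CPM in HET and 877, 672 and 723 in WT. *Pvalb*, the calcium buffer parvalbumin, had 205, 425 and 295 CPM in HET and 684, 552 and 429 in WT. *Pvalb* had a log2 fold change of -0.85 (SE 0.29, unadjusted p = 0.0237, edgeR adjusted p = 0.492). Fewer fibers of a type and less RNA per fiber cannot be told apart in whole muscle, and the part of the fiber mix in the *Mybpc2* values was not tested.

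**Figure D5:**
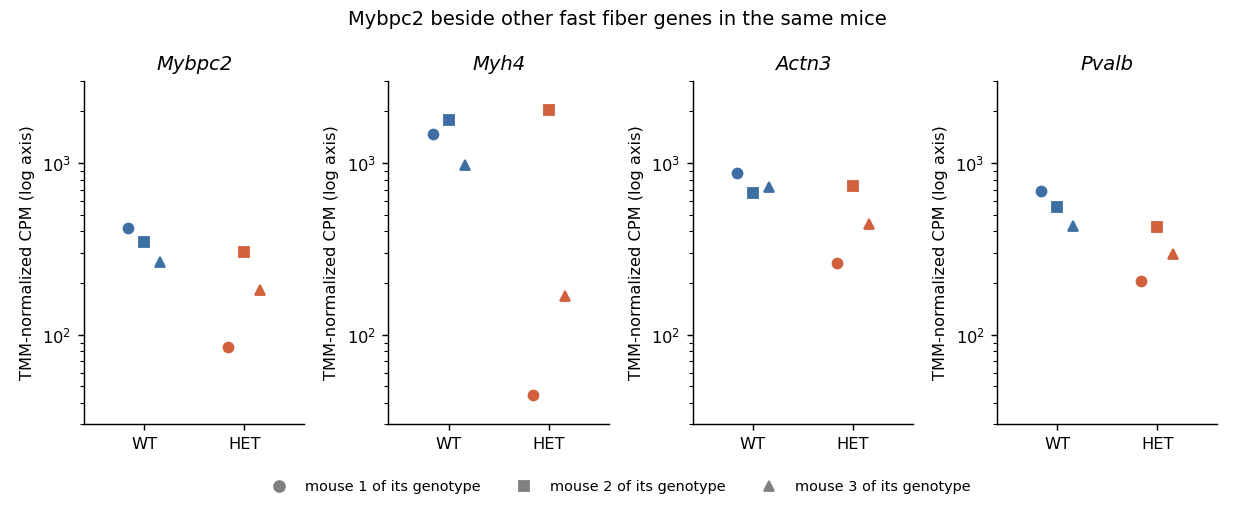
TMM-normalized CPM of *Mybpc2*, *Myh4*, *Actn3* and *Pvalb* in each mouse on the same log axis, with WT in blue and HET in orange and symbols for mice 1 to 3. HET 1 is lowest in all 4 genes and HET 3 is next lowest, while HET 2 is the highest of all mice for *Myh4* at 2041 CPM. *Actn3* and *Pvalb* were chosen from the fast genes with this order, which other fast genes such as *Myh1* and *Myh2* do not have.

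The related lists were read by their counts. Of 18 thick filament partners 16 were tested, with 7 above 0, 9 below 0, 0 called by edgeR and 0 with an unadjusted p below 0.05, a median log2 fold change of -0.06, and *Myh4* (-0.91) and *Myh8* (0.42), a perinatal heavy chain, at the ends. Of 17 other light chains, kinases and phosphatase subunits 16 were tested, with 7 above 0, 9 below 0, 0 called, 1 (*Mylk4*) with an unadjusted p below 0.05, and a median of -0.03. An unadjusted p below 0.05 was reached by 7.76% of all tested genes. *Myl6b*, an essential light chain of slow and nonmuscle myosin, was at the top at 0.25. *Mylk4*, another kinase of the family, was lowest. It had 112, 117 and 110.5 CPM in HET and 180.1, 119 and 152 in WT. All HET mice lay below all WT mice, as for 6.02% of all tested genes, and the log2 fold change of -0.41 (SE 0.13) had an edgeR adjusted p of 0.382.

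Fiber type lists held 0 calls by edgeR, and an unadjusted p below 0.05 was reached by 1 fast gene (*Pvalb*), 1 slow gene (*Myoz2*) and 0 developmental genes. Among all tested genes 7.76% reached it in either direction. Of 12 fast fiber genes 11 were below 0 and 1, *Myh2*, above it, with a median of -0.19, and HET mice lay below all WT mice for 4 of them, the troponin genes *Tnnc2*, *Tnni2* and *Tnnt3* and *Pvalb*, beside 6.02% of all tested genes. Of 9 slow fiber genes 7 were below 0, and HET mice lay below all WT mice for 2, *Atp2a2*, the slow calcium pump gene, and *Myoz2*. The slow list had a median of -0.08, with *Myoz2*, a Z-disc protein gene (-0.18), and *Myh7b* (0.07) at the ends. Of 8 developmental and regenerating fiber genes, a list to which *Myl4* and *Mybph* are related, 5 were above 0 with a median of 0.11, between *Tnnt2* (-0.21), the cardiac and embryonic troponin T gene, and *Chrng* (0.63), the fetal acetylcholine receptor subunit gene. These medians stand beside -0.02 over all tested genes.

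Markers of other cell types were read in the same way. All 8 macrophage markers were above 0. Of them 5 were called higher in HET by edgeR (*C1qa*, *C1qb*, *Csf1r*, *Adgre1* and *Lyz2*), where 0.143% of all tested genes were. The list had a median log2 fold change of 1.40, with *Mrc1* lowest (0.33) and *Adgre1* highest (1.61). The summed level of the list was 80.9 to 116 CPM in HET and 47.4 to 52.0 in WT, and 0 of the 8 passed when HET 1, HET 3, WT 1 or WT 2 was left out. All 6 fibroblast markers were above 0 (median 0.72, 0 called, 6 with an unadjusted p below 0.05 by edgeR, lowest *Dcn* at 0.58 and highest *Col1a1* at 1.23), with 1799 to 2838 CPM in HET and 851 to 1392 in WT. All 6 tendon markers were above 0 (median 0.98, 0 called, 4 with an unadjusted p below 0.05 by edgeR, *Scx* at 0.15 to *Fmod* at 1.73), with 344 to 578 CPM in HET and 114 to 277 in WT. Over all tested genes, 7.76% had an unadjusted p below 0.05 in either direction. Smooth muscle markers overlapped between genotypes, at 250 to 311 and 237 to 281 CPM, with 4 of 6 above 0, 0 called, a median of 0.07, and *Lmod1* (-0.08) and *Cnn1* (0.60) at the ends. The 9 genes summed to 19733 to 21062 CPM in HET and 20568 to 23429 in WT, and the part of the other cell types in that was not tested.

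The genes most like *Mylpf* and *Myl2* over the 6 libraries were sought among 7855 genes with a mean of at least 10 CPM, by the root mean square difference of log2 CPM after centring each gene. For *Mylpf* they were *1700021F05Rik* (0.0306), *Mars2* (0.0308) and *Aamdc* (0.0328). For *Myl2* they were *Nucks1* (0.0317), *Cd59a* (0.04003) and *Rnf128* (0.04005). *Mylpf* and *Myl2* themselves varied 1.27-fold and 1.31-fold between the highest and the lowest mouse, so likeness over so narrow a range is a description only.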

How the data were processed

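RNA from the soleus of 3 HET and 3 WT mice was sequenced as single 50-base reads, 1 library per mouse. Per the labels and file headers, the authors aligned reads with STAR 2.7.3a to GRCm38.p6, and the deposited raw counts are reads per gene from featureCounts 2.0.3 in reverse-stranded mode, without multi-mapping reads. The deposited normalized signal holds those counts after division by the library's size factor from DESeq2 (0.773 to 1.42). The remaining deposited file holds the authors' own DESeq2 comparison (fold changes, standard errors and p-values) and was not used. No column of values per mouse was left unmatched (0).

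Counts were fitted with edgeR 4.0.16 (R 4.3.3): filterByExpr with a minimum count of 10, TMM factors, robust quasi-likelihood test with genotype as the only term, two-sided, Benjamini-Hochberg adjustment over all 14696 genes tested, threshold 0.05. The SE is the size of the log2 fold change over the square root of F. The biological coefficient of variation was 0.143. The test was also run on simulated counts with the same dispersion for every gene and changes larger than those fitted for the 9 genes. That run does not measure the power for these genes. Exon overlap, shared 50-base words and alignments used GENCODE M21, which names 51633 of the 51912 genes. RPKM used total reads on genes, 26790075 to 50368796 per library, so counting error is small beside the spread between mice, except for *Mybph* and *Myl4*, where 1 library's counting error was 9.28% to 13.1% and 4.96% to 6.27%. Plots were made with matplotlib 3.10.9.

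Genes named were the 9 members, *Mustn1*, the 4 adult heavy chains, list members called or at the ends of their list, and the 3 genes nearest *Mylpf* and *Myl2*. Others are said to be chosen after their values were seen, as were the troponin genes, *Atp2a2* and the cardiac and pseudogene examples. The members and lists were chosen with earlier results of these data known. Alternatives were other scalings, filters and tools (DESeq2 1.42.0, limma 3.58.1), a replicate block, length and GC offsets, and leaving out each mouse.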

Additional observations from a re-analysis of the deposited data

How the results depend on the processing

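None of the 9 genes passed the threshold in any of the 18 alternative fits, which include DESeq2, limma-voom and the 6 that leave out 1 mouse, and the lowest adjusted p of a member was 0.458 (*Mylpf* without WT 3). The count of members with an unadjusted p below 0.05 by edgeR, 0 as reported, was less stable. It was 1 without the filter, with non-robust dispersion, with a GC offset and replicate block, and without WT 3. Without HET 2 it was 2. The sign changed for *Mybpc1* without scaling factors (0.029) and without HET 2 (0.0035), for *Myl4* without WT 3 (-0.020), and for *Mybph* without WT 1 (0.066). Without 1 mouse, the log2 fold change ranged from -0.080 to 0.0035 for *Mybpc1*, from -0.020 to 0.13 for *Myl4*, from -0.34 to 0.066 for *Mybph*, from -0.27 to -0.12 for *Mylpf*, from -0.23 to -0.06 for *Myl2*, from -0.21 to -0.11 for *Myl1*, from -0.21 to -0.10 for *Myl3*, from -0.39 to -0.06 for *Mylk2* and from -1.35 to -0.51 for *Mybpc2*. A length offset moved *Mylpf* from -0.18 to -0.10, and to -0.099 with the replicate block. Without scaling factors the log2 fold change was -0.10 for *Mylpf*, -0.08 for *Myl1*, -0.05 for *Myl2* and -0.07 for *Myl3*. The median of the 9 genes was then -0.08 with 7 below 0, beside 0.06 over all tested genes. With the factors these medians were -0.15 and -0.02. Leaving out 1 mouse moved the difference in log2 ratio between -0.11 and 0.03 for *Mylpf* over *Myl2*, between -0.03 and 0.05 for *Myl1* over *Myl3*, and between -1.43 and -0.46 for *Mybpc2* over *Mybpc1*.

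Over all tested genes, the 21 higher and 1 lower calls became 386 and 18 without the filter on low counts, 218 and 8 with DESeq2, 12 higher with limma-voom, 6 and 0 with non-robust dispersion, 6 higher with a GC offset, and 0 to 77 higher and 0 to 6 lower without 1 mouse. Without the filter 1 gene each passed among thick filament partners and developmental genes (*Myh8* in both) and among other light chains (*Mylk4*). *Mustn1* was -0.96 with non-robust dispersion and missed the threshold (adjusted p = 0.0606), and was -1.09 to -0.88 without 1 mouse, with an adjusted p of 0.0314 to 0.280. Macrophage markers past the threshold, 5 as reported, were 3 with non-robust dispersion and 3 with a GC offset, and 0 to 6 without 1 mouse. Fibroblast markers, 0 as reported, were 4 without the filter, 2 with DESeq2, and 0 to 1 without 1 mouse, and tendon markers, 0 as reported, were 2 without the filter and 1 with DESeq2. The cause of these shifts was not tested.

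The replicate number as a block gave 114 higher and 2 lower calls, 140 and 2 together with a length offset, and 94 and 2 together with a GC offset, and 0 of the 9 genes in each. In the same 3 fits, fibroblast markers past the threshold were 3, 4 and 2 and tendon markers 3, 3 and 2. Same-numbered mice deviated from their group means with correlations of 0.20, -0.01 and -0.03, and mice of unlike number with -0.14 to 0.13. With 3 mice a genotype these values cannot decide whether the numbers pair the mice, and the labels do not say what the numbers mark. Power at 3 mice a genotype was not measured.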
